A study of Hordeum vulgare with 12 samples.

Results

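The wide VRS5 peaks are the regions of the deposited barley DAP-seq peak list on chromosomes 1H to 7H that were at least 600 bp long. They were selected on width alone, and 4785 of the 99518 peaks on these chromosomes met the rule, a share of 4.81%. The other 94733 peaks are called narrower peaks. All 99567 deposited peaks include 49 on sequence not assigned to a chromosome, which were left out. Wide peaks made up 12.1% of the sequence under peaks, 3.75 Mb in all.

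Peaks were measured by DNA affinity purification sequencing (DAP-seq), in which fragments of purified genomic DNA are incubated with a tagged protein expressed outside the cell, pulled down through the tag and sequenced. The bait was FLAG-tagged VRS5, cloned from cv. Bowman and expressed in a wheat germ extract, and FLAG-tagged GFP was the negative control. Genomic DNA for all libraries came from developing inflorescences of cv. Morex, sampled 4 weeks after sowing at about Waddington stage 4, and each replicate used 100 mg of tissue. There were 6 VRS5-FLAG and 6 GFP-FLAG libraries, which the authors pooled by bait before peak calling. No value below has a replicate error for this reason, and no comparison between libraries was possible. Intervals are 95% Wilson intervals for shares and 95% Newcombe intervals for differences between shares. Both take peaks as independent of each other and reflect counting error alone. The DNA was naked and had been size-selected on a gel after amplification, so that nucleosomes and other proteins of the inflorescence were not present.

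VRS5 is the barley homolog of maize TEOSINTE BRANCHED 1, a transcription factor of the TCP family. It represses the outgrowth of tillers and of the lateral spikelets that distinguish row types. TCP proteins bind DNA as dimers at short GC-rich motifs, so that a single site is far shorter than any peak, and a peak has the length of the overlapping fragments that were captured around 1 or more sites. The summit is the base of a peak with the highest pileup, which is the height of the stacked reads there.

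The wide peaks ran from 600 to 2142 bp, and the median was 732 bp (quartiles 651 and 859). The median narrower peak was 268 bp long (quartiles 219 and 332), and the smallest was 161 bp. Most wide peaks lay close to the limit, with 1994 under 700 bp, 1135 from 700 to below 800 bp and 1113 from 800 to below 1000 bp. Only 543 reached 1000 bp and 27 reached 1500 bp. The limit of 600 bp cut through a continuous distribution. The 260 peaks of 600 to 609 bp, just inside the limit, had a median pileup of 59 and a median fold enrichment over GFP-FLAG of 4.27, and the 219 peaks less than 10 bp below the limit had 58 and 4.35. The summit lay within 15 kb of a protein-coding gene in 11.2% of those just inside and 15.5% of those just below.

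Wide peaks were taller than narrower ones, but hardly more enriched. These values come from the same reads as the width and are given as a description, with no test. The median pileup was 63 in wide peaks (quartiles 52 and 80) and 53 in narrower peaks (46 and 64). The GFP-FLAG background at the summit, computed back from pileup and fold enrichment, was 13.5 (10.9 to 15.8) in wide and 10.9 (9.25 to 13.5) in narrower peaks. Both terms of the ratio were thus higher in wide peaks. The median fold enrichment was 4.46 (3.82 to 5.45) in wide and 4.38 (3.86 to 5.20) in narrower peaks, and the median −log10 q was 19.04 and 15.77. The share of peaks that were wide rose with pileup, from 2.05% for pileups of 33 to 45 to 10.3% for pileups of 69 to 204. It rose with background as well, from 2.18% in the lowest class to 9.56% in the highest.

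**Figure D1:**
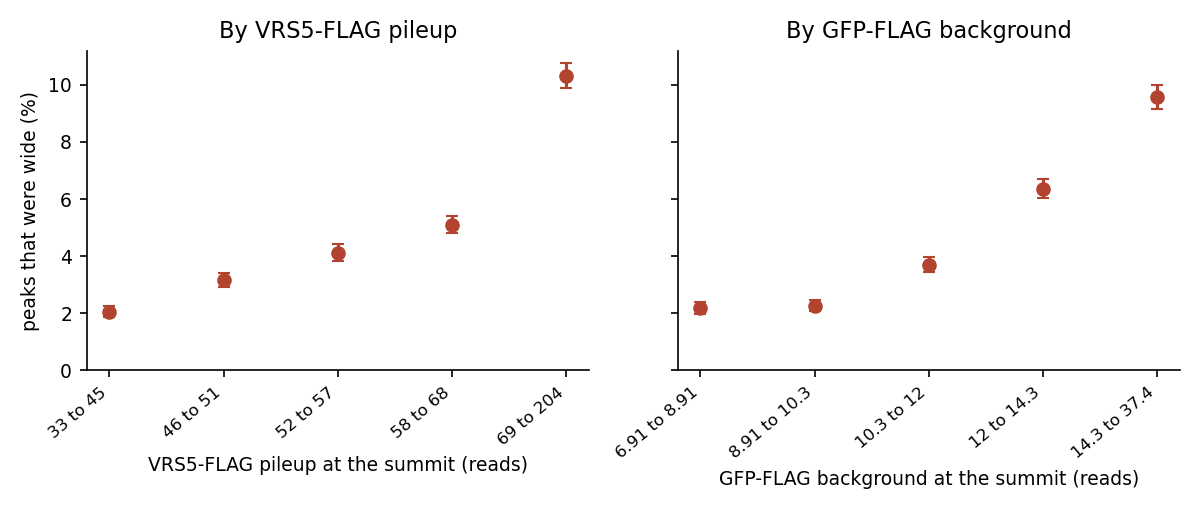
Share of all peaks that were wide (y axis, %) in 5 classes of VRS5-FLAG pileup at the summit (left) and 5 classes of GFP-FLAG background at the summit (right), with 95% Wilson intervals as bars. The share rose from 2.05 to 10.3% over the pileup classes and from 2.18 to 9.56% over the background classes.

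Wide peaks were a minority among the strongest VRS5 peaks, but a larger one than the 4.81% over all peaks. Of the 450 peaks enriched over 10-fold, 35 were wide, or 7.78% (5.65 to 10.6). Of the 9955 peaks with a fold enrichment of 6.30 or more, 6.60% were wide. Among the 10620 peaks with a pileup of 77 or more, the share was 13.0%. The tallest wide peak had a pileup of 157 over a background of 15.6. It lay on 1H from 211137749 to 211138493, was 745 bp long and had its summit 625 kb from the nearest protein-coding gene, LOC123398093. At 13.5-fold, the most enriched wide peak covered 1178 bp of 4H, from 97224128 to 97225305, and its pileup was 150. Its summit was 5.94 kb from LOC123446190. The next by fold enrichment, at 12.8, also lay on 4H, from 150808114 to 150808770. Its background of 6.91 was the lowest that occurred in the list.

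The summits of wide peaks were spread along the peak, with fewer in the middle than to either side of it. In wide peaks the position of the summit had 2 modes, with the most summits at 20 to 25% and at 75 to 80% of the width and a dip between them, lowest at 45 to 50%. In narrower peaks it had 1 mode in the middle. In 48.2% of wide peaks and 7.80% of narrower peaks the summit was more than 0.25 of the width away from the middle. Summits spread evenly along the width would lie in equal numbers within and beyond this distance. By this measure the wide peaks were thus close to an even spread. Both sides were used alike. When the peak was split into 3 equal parts, the lower-coordinate part held 1736 summits, the higher-coordinate part 1694 and the middle one 1355. Few wide peaks had the summit at the very edge, with 1.25% between 0.05 and 0.1 of the width and 1.13% between 0.9 and 0.95. The median distance from the middle of the peak was 0.245 of the width in wide peaks (quartiles 0.154 and 0.311) and 0.103 in narrower peaks. It grew with width, from 0.0736 in peaks under 200 bp to 0.255 in peaks of 800 to below 1000 bp, and was 0.214 in those of 1000 to below 1500 bp.

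In base pairs, the distance to the farther edge grew more with width than the distance to the nearer edge. The farther edge is by definition the more distant one, so that part of this was fixed in advance. From peaks of 300 to below 400 bp to peaks of 700 to below 800 bp, the median distance to the nearer edge rose from 127 to 181 bp. The median distance to the farther edge rose from 210 to 562 bp over the same classes. Over all wide peaks the nearer edge was 190 bp away (quartiles 141 and 265) and the farther edge 546 bp (468 and 643). The median nearer arm was 214 bp in peaks of 800 to below 1000 bp and 316 bp in those of 1000 to below 1500 bp. In the 27 peaks of 1500 bp or more it was 430 bp. The 3430 wide peaks with the summit in an outer part and the 1355 with the summit in the middle part had similar median widths, 732.5 and 729 bp, and similar pileups, 62 and 65. Both edges and the summit come from the same reads, so that these values are again a description.

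**Figure D2:**
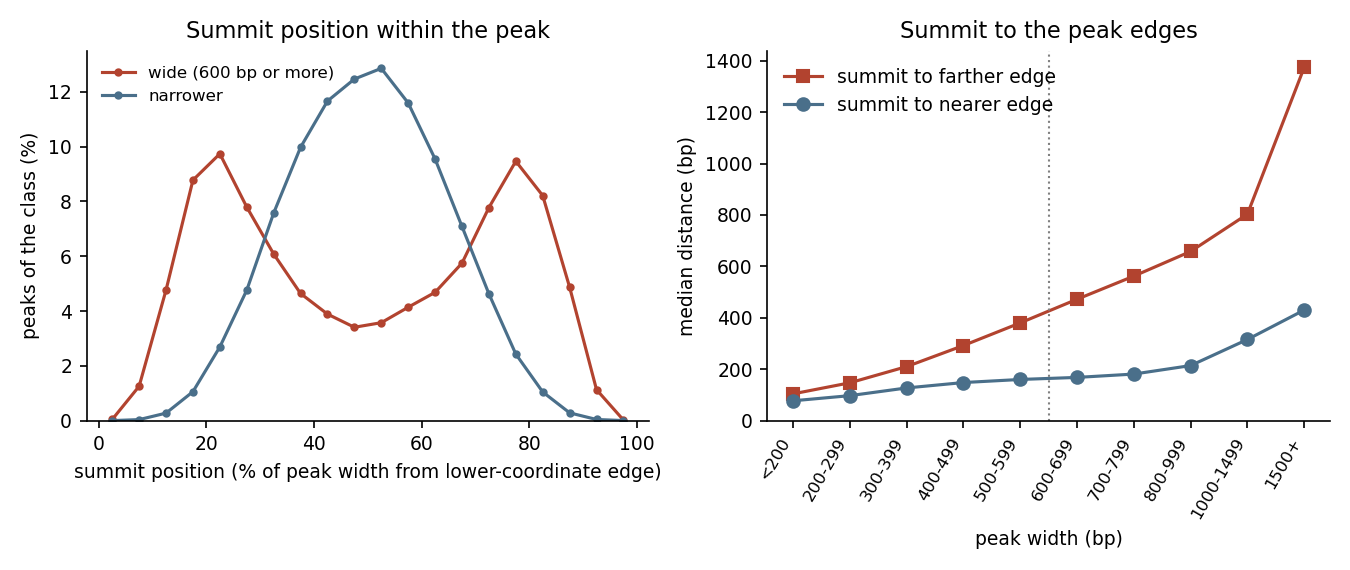
Left, share of wide and of narrower peaks (y axis, %) by the position of the summit along the peak (x axis, % of the width from the lower-coordinate edge, in steps of 5%). Right, median distance (bp) from the summit to the nearer and to the farther edge by class of width, with the limit of 600 bp dotted; wide peaks had most summits at 20 to 25% and 75 to 80% of the width, and the farther arm, by definition the longer, lengthened most.

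The widest peak lay on 2H from 247344253 to 247346394, and was 2142 bp long. It reached a pileup of 70 and was enriched 4.28-fold, at a −log10 q of 20.7. The nearest protein-coding gene, LOC123425999, was 32.9 kb from the summit. The second, on 1H from 199669105 to 199671219, was 2115 bp long, with a pileup of 116 and a fold enrichment of 6.93, and lay 28.9 kb from LOC123428688. Both stayed well below the 13.5-fold of the most enriched wide peak. The third, 1969 bp on 5H from 358748191 to 358750159, was the only one of the 10 widest with a summit within 15 kb of a gene. It lay 9.72 kb from LOC123395606 and 243 bp from another peak, 447 bp long. The other 7 ranged from 1718 to 1890 bp. Their summits were 96.1 kb from LOC123401135, 130 kb from LOC123408989, 218 kb from LOC123394940, 415 kb from LOC123403510, 435 kb from LOC123430209, 477 kb from LOC123448330 and 575 kb from LOC123426209. The annotation used here gives these loci no description, so that their functions are not stated. Over the 10 widest peaks, pileups ran from 63 to 116 and fold enrichments from 3.53 to 6.93.

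Inside genes, wide peaks were rare but more frequent than narrower ones. The summits of 65 wide peaks fell within the span of a protein-coding gene, 1.36% (1.07 to 1.73), against 717 or 0.757% (0.704 to 0.814) of the narrower peaks. The difference was 0.602 percentage points (0.305 to 0.975), and it was above 0 on each of the 7 chromosomes, from 0.0636 points on 6H to 2.09 points on 5H. The interval excluded 0 only on 5H. Within 10 equal segments of the chromosomes the difference was 0.625 points (0.293 to 0.957). The higher share in gene bodies was not particular to peaks past the limit of 600 bp. It was 1.72% in peaks of 500 to below 600 bp and 1.81% in those of 600 to below 700 bp. In peaks of 700 to below 800 bp it was 1.23%, and in those of 800 to below 1000 bp 1.08%. The widest peaks did not follow, since 3 of the 543 peaks of 1000 bp or more had the summit in a gene, 0.552%. For a limit of 800 bp the difference was 0.122 points, and its interval of -0.239 to 0.708 included 0. Background at the summit moved with the result, at a median of 14.1 for wide and 11.95 for narrower peaks in genes. Within 10 classes of background the weighted difference was 0.446 points (0.110 to 0.782). It was not found at every background. In 5 classes of background, it was -0.00076 points (-0.351 to 1.21) in the lowest class. In the next classes it was 0.540 and 0.203 points, with intervals that included 0. In the upper classes it was 0.588 (0.0257 to 1.44) and 0.559 points (0.0443 to 1.26).

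The genes that held a wide summit were long. The 65 summits fell in 65 different genes with a median length of 24.4 kb (quartiles 15.6 and 33.8), whereas the 602 genes that held a narrower summit had a median of 12.6 kb, and all 30627 protein-coding genes 2.86 kb. Of the peaks inside genes shorter than 5 kb, 2 of 137 were wide, 1.46% (0.401 to 5.17). Of those inside genes of 20 to 40 kb, 31 of 194 were wide, 16.0% (11.5 to 21.8). In genes of 40 kb or more the share was 7.52% (4.14 to 13.3), which overlapped the values of its neighbours. A wide summit lay a median of 5.05 kb inside the gene, counted from its nearer end, and 64 of the 65 peaks lay wholly within the gene. Whether these summits lay in exons or introns was not analysed here.

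Among the genes with a wide summit inside, LOC123448450 on 4H (238025368 to 238103152) held the widest peak, 1211 bp from 238034778 to 238035988. Its pileup was 75 and its fold enrichment 4.89, and the summit was 98 bp from the lower-coordinate edge. LOC123447128, near the end of 4H, held a peak of 1133 bp with a pileup of 78 and a fold enrichment of 4.20. In this peak the summit was 89 bp from the higher-coordinate edge, so that these 2 peaks were among the most lopsided. LOC123395735 on 5H held a peak of 1009 bp with a fold enrichment of 4.37, which lay 0.362 kb from a greenscreen region. The most enriched of the 10 widest peaks in genes was the 901 bp peak in LOC123448341, a gene of 57.4 kb on 4H, with a pileup of 121 and a fold enrichment of 8.30. It lay 0.183 kb from a greenscreen region. The next were LOC123426593 on 2H, with 878 bp and 6.78-fold, and LOC123394997 on 5H, with 858 bp and 6.14-fold. LOC123428693 on 2H followed with 947 bp and 5.84-fold, and LOC123410610 on 7H with 853 bp and 5.49-fold. LOC123405421 on 6H and LOC123395232 on 5H held the weakest of the 10, at 3.91-fold and 3.20-fold, over backgrounds of 17.7 and 18.7.

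Around genes, the relation of wide peaks to gene distance changed direction with the distance. Up to 5 kb from a protein-coding gene, gene bodies included, lay 5.94% of the wide and 4.34% of the narrower summits, a difference of 1.60 points (0.947 to 2.31). Outside gene bodies, the difference was -0.0319 points (-0.190 to 0.203) up to 1 kb and 1.03 points (0.486 to 1.64) from 1 to 5 kb. From 5 to 15 kb it was already below 0, at -0.865 points (-1.55 to -0.109). Within 15 kb the shares were 12.5% and 11.8%, and the difference of 0.730 points had an interval of -0.201 to 1.72, which included 0. This value depended on the settings, with 0.0819 points (-0.887 to 1.05) within classes of background, 1.05 points (0.0862 to 2.02) within classes of pileup and 1.71 points (0.794 to 2.63) within segments of the chromosome. The weighted value for background joined classes of unlike direction. In 5 classes of background, the difference was -0.734 points (-3.18 to 2.41) in the lowest class. It was 5.06 (1.93 to 8.75) and 2.80 points (0.372 to 5.59) in the next classes. In the upper classes it was -0.604 and -1.38 points, with intervals that included 0. Over all backgrounds, the difference within 15 kb was 1.91 points (1.15 to 2.69) for a width limit of 500 bp and -0.355 points (-1.82 to 1.28) for 800 bp. Within 50 kb the wide peaks were less frequent, at 31.8 against 35.3%, and within 100 kb at 50.2 against 57.9%. The difference at 100 kb was -7.74 points (-9.20 to -6.29), and it was below 0 on all 7 chromosomes with intervals that excluded 0. The median wide summit lay 99.6 kb from the nearest protein-coding gene and the median narrower summit 79.4 kb.

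Seen from the genes, the share of peaks that were wide was 8.31% (6.57 to 10.5) in gene bodies and 4.497% (2.96 to 6.78) up to 1 kb from them. From 1 to 5 kb the share was 6.29% (5.50 to 7.20), and from 5 to 15 kb 4.27% (3.84 to 4.76). It was lowest from 15 to 100 kb, at 3.97% and 3.94% in the classes below and above 50 kb. Farther out it rose again to 4.95% from 100 to 200 kb, 6.07% from 200 to 500 kb and 7.70% (6.90 to 8.58) beyond 500 kb. Wide peaks were thus overrepresented at both ends of the range of distances. Pseudogene bodies held 24 wide summits, 0.502% (0.337 to 0.745), close to the 0.536% of narrower peaks. Within 15 kb of long non-coding RNA genes lay 1.84% of wide and 1.67% of narrower summits, and within 15 kb of tRNA genes 0.230% and 0.261%. In each of these classes the interval of the difference included 0. No wide summit lay within 15 kb of an rRNA gene, against 44 of the narrower ones. The interval of this difference also included 0, and a count of 0 among 4785 peaks allows a share of up to 0.0627%, taken as 3 counts of the total, or 0.0802% by the Wilson interval.

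**Figure D3:**
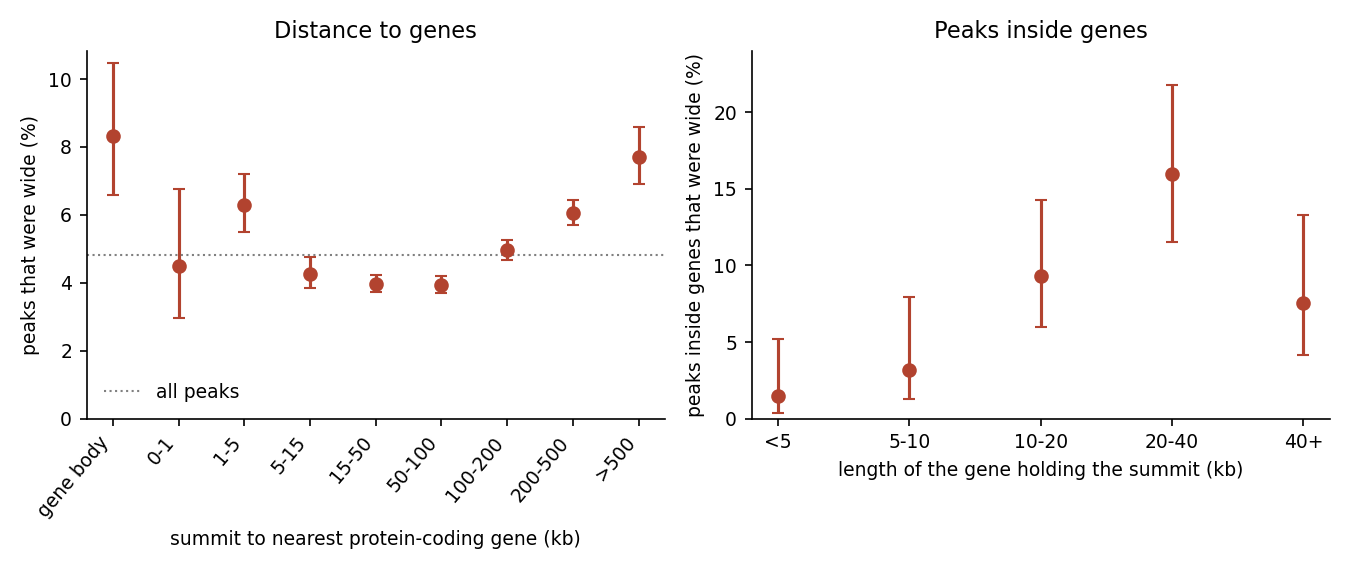
Left, share of all peaks that were wide (y axis, %) by the distance from the summit to the nearest protein-coding gene (kb), with the share over all peaks, 4.81%, dotted. Right, the same share among peaks with the summit inside a gene, by the length of that gene (kb); bars are 95% Wilson intervals, and the left share fell from 8.31% in gene bodies to 3.94% at 50 to 100 kb and rose to 7.70% beyond 500 kb.

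Counted by gene, 752 of the 30627 protein-coding genes (2.46%, 2.29 to 2.63) had a wide summit within 15 kb. They made up 6.78% of the 11090 genes with any VRS5 summit in that window. For 442 of the 752 genes no narrower summit lay there. A single wide summit was the rule, with 18 genes having 2 or more. SOC1-like, which encodes a MADS-box transcription factor and was placed as LOC123437294 on 1H, had none. The nearest wide peak, 757 bp from 362994920 to 362995676, lay 538 kb away, and the peak within 15 kb of the gene was 248 bp long.

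LOC123446871, on 4H from 544607636 to 544609078, had the most wide summits within 15 kb, 4 of 10 peaks. All 10 peaks lay on the side of higher coordinates, within 13.8 kb. The wide ones were 772, 763, 786 and 644 bp long, with pileups of 64, 63, 77 and 84 and fold enrichments of 4.82, 5.92, 3.96 and 5.99. The other 6 were 255 to 580 bp long, and 1 of them, with a pileup of 110 and a fold enrichment of 7.38, was the tallest of the row. The summits followed each other at 630 to 2657 bp with a median of 1361 bp, and 7 of the 9 spacings were between 1200 and 1800 bp. In all 10 peaks the summit lay on the lower-coordinate side of the middle, 91 to 248 bp from that edge. In 8 of them it lay in the first of 3 equal parts. In the other 2, the 255 and 264 bp peaks at the ends of the row, it was closer to the middle, at 0.437 and 0.399 of the width. The nearest greenscreen region was 257 kb away. The row was singled out for its count of wide peaks, so that its values are a description of 1 locus.

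**Figure D4:**
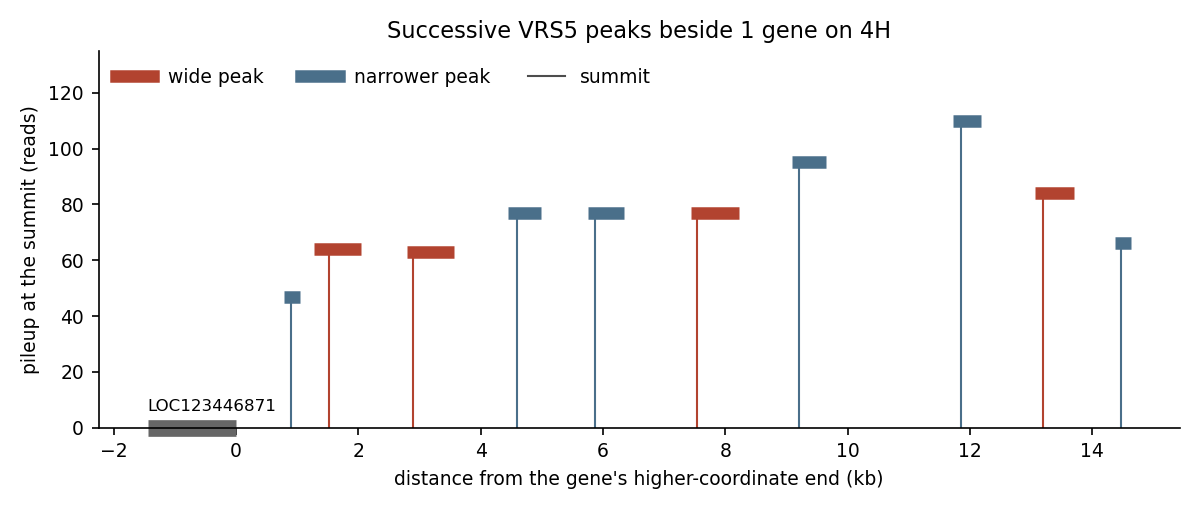
The 10 successive VRS5 peaks beside LOC123446871 on 4H, drawn to scale by distance from the higher-coordinate end of the gene (x axis, kb) at the height of their pileup (y axis), with wide peaks in red, narrower ones in blue and a thin line at each summit. The summits were 630 to 2657 bp apart, and each lay on the gene side of the middle of its peak.

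The other genes named for 2 wide summits within 15 kb each had 4 peaks there in all. LOC123416281 and LOC123416297 on 1H are neighbours and share the same pair, 808 and 844 bp long, with fold enrichments of 3.23 and 2.91. The second of these stood on a background of 26.5, far above the median of 13.5 for wide peaks. Beside LOC123424890 on 2H, peaks of 659 and 762 bp lay 10.8 and 9.71 kb from the gene, with fold enrichments of 6.84 and 4.01. The summits of this pair lay at 0.805 and 0.239 of the width, so that they were turned towards each other. LOC123448632 on 4H had a wide peak on each side, of 772 bp at 8.02 kb and of 664 bp at 14.2 kb.

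Wide peaks had close neighbours more often than narrower ones. Another peak lay within 2 kb, edge to edge, of 788 wide peaks, 16.5% (15.4 to 17.5), and of 9.01% (8.83 to 9.20) of the narrower peaks. The difference was 7.45 points (6.41 to 8.55), and on single chromosomes it was between 5.93 and 9.68 points with each interval above 0. It was 6.43 points within classes of pileup and 5.49 points (4.41 to 6.56) within classes of background. Among peaks with q below 1e-20 it was smaller, at 3.004 points (2.05 to 4.11), with shares of 6.24 and 3.23%. Counted from summit to summit, where the width itself keeps neighbours apart, the shares were 12.3 and 7.60%. In the classes of gaps examined, up to 10 kb, the excess was found below 3000 bp. Gaps of 200 to below 400 bp occurred 27.4 times per 1000 wide peaks and 13.7 times per 1000 narrower ones, but gaps of 3000 to below 4000 bp 47.2 and 63.2 times. Within 10 kb the shares with a neighbour were 49.2 and 47.7%, and wide peaks with no other peak within 50 kb were about as frequent as narrower ones, at 8.34 and 8.67% (difference -0.328 points, -1.10 to 0.508).

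The nearest neighbour of a wide peak was itself wide in 7.98% of cases (7.25 to 8.79), against 4.68% (4.55 to 4.81) for narrower peaks, a difference of 3.30 points (2.56 to 4.12). For a width limit of 800 bp it was 1.13 points (0.441 to 2.05). Most wide peaks stood alone all the same, with 3997 of the 4785 having no peak within 2 kb. When peaks with gaps of up to 2 kb were joined to runs, 4.43% of the peaks that stood alone were wide, and the share was 7.81% (7.25 to 8.40) in runs of 2, 13.0% (10.9 to 15.4) in runs of 3 and 17.6% (11.6 to 25.9) in runs of 4 peaks. In 62 runs there were 2 or more wide peaks, which together held 126 of them. Only 2 runs held 3 wide peaks, that beside LOC123446871 and a run on 2H from 56998750 to 57002831, 50.8 kb from LOC123429544. The 3 peaks of the latter were 1169, 1583 and 749 bp long, with gaps of 356 and 225 bp between them, pileups of 65, 94 and 59 and fold enrichments of 4.55, 5.73 and 4.13. The first had its summit 1062 bp from the lower-coordinate edge and the second 179 bp from it, so that these 2 summits lay only 642 bp apart. Where a wide peak had a neighbour within 2 kb, the neighbour lay on the side of the nearer edge in 436 of 787 cases, 55.4% (51.9 to 58.8), against 52.0% (50.9 to 53.1) for narrower peaks, and the intervals overlapped.

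Some fixed distances between summits that recur in the full list were less frequent among wide peaks. These distances were taken from earlier work on the same list, because they recur in it. Narrower peaks make up 95.2% of that list, so that an excess among them was built into the choice. The comparison with wide peaks is therefore a description only. A summit 3.60 to 3.75 kb away was found for 1.09% of wide peaks and for 2.43% of narrower ones, a difference of -1.34 points with an interval below 0. For windows of the same breadth on both sides of this distance, the shares were 0.920 and 0.773% for wide and 0.836 and 0.850% for narrower peaks. Wide peaks thus showed little of the excess at this distance. The same held for 5.10 to 5.35 kb, with 1.505 against 2.69%, and for 6.45 to 6.65 kb, with 1.09 against 2.28%. At 9.90 to 10.25 kb the wide peaks did show it, with 4.12% against 2.36 and 2.34% in the flanking windows. The share of narrower peaks there was 4.72%, and the interval of the difference included 0.

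Wide peaks lay beside greenscreen regions more often. The authors defined these stretches by their high read numbers in the control libraries and removed every peak that overlapped one. A greenscreen region lay within 1 kb of the edge of 249 wide peaks, 5.20% (4.61 to 5.87), against 1.79% (1.71 to 1.88) of narrower peaks, a difference of 3.41 points (2.81 to 4.08). On single chromosomes the difference was between 2.34 and 4.20 points, with all intervals above 0. The share of peaks that were wide fell with the distance to such a region, from 12.8% within 1 kb to 8.75% from 1 to 5 kb, 5.59% from 5 to 20 kb, 4.45% from 20 to 100 kb and 3.90% beyond. The median background of all peaks moved in the same order, from 14.7 to 10.6. Greenscreen regions and background both come from the GFP-FLAG reads, so that a higher background near these regions was built in. Within classes of background the weighted difference in shares was 2.32 points (1.69 to 2.96). It was not found at every background. In 5 classes of background, it was -0.236 points (-0.315 to 0.643) in the lowest class and 0.0180 points (-0.439 to 1.30) in the next. In the upper classes it rose from 1.27 points (0.371 to 2.66) to 3.88 points (2.65 to 5.28). Among peaks over 20 kb from any greenscreen region, the difference in close neighbours was 8.03 points (6.79 to 9.36), and that in gene bodies 0.302 points (0.0126 to 0.702).

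Along the chromosomes, the wide peaks were drawn towards the middle. The share of peaks that were wide was 4.03% (3.61 to 4.48) in the first of 10 equal segments of the chromosomes, 6.85% (6.36 to 7.36) in the fifth and 4.30% (3.85 to 4.80) in the last. Its lowest values were in the second segment, at 3.49%, and in the ninth, at 3.76%, so that it did not fall steadily to the ends. Between 0.3 and 0.6 of the chromosome length lay 40.1% of the wide and 30.8% of the narrower peaks, a difference of 9.30 points (7.89 to 10.7). This window was not planned and joins the segments with the highest shares of wide peaks. A difference above 0 over all chromosomes was thus built into the choice, and the values are a description. On single chromosomes the difference was between 7.002 points on 2H and 11.7 points on 4H, with each interval above 0. The outermost segments at both ends together held 13.0% of the wide and 15.1% of the narrower peaks, a difference of -2.14 points (-3.09 to -1.13). On single chromosomes it ran from -3.46 points on 4H to -0.256 points on 2H, and the interval included 0 on 4 of the 7. Genes were densest at the ends, with 14.6 and 19.1 protein-coding genes per Mb in the first and last segments, and sparsest in the fifth, with 1.94. The median background of all peaks was 10.6 in both outer segments and 11.95 in the fifth. Within 10 classes of background the weighted difference in the outer segments was -1.30 points (-2.28 to -0.316), and within classes of pileup it was -1.09 points. The direction was not the same at every background. In 5 classes of background, the difference was 4.36 points (0.673 to 8.54) in the lowest class, where wide peaks were more frequent at the ends, and -0.390 and 0.293 points in the next classes, with intervals that included 0. In the upper classes it was -2.47 (-4.20 to -0.512) and -2.77 points (-4.16 to -1.24).

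**Figure D5:**
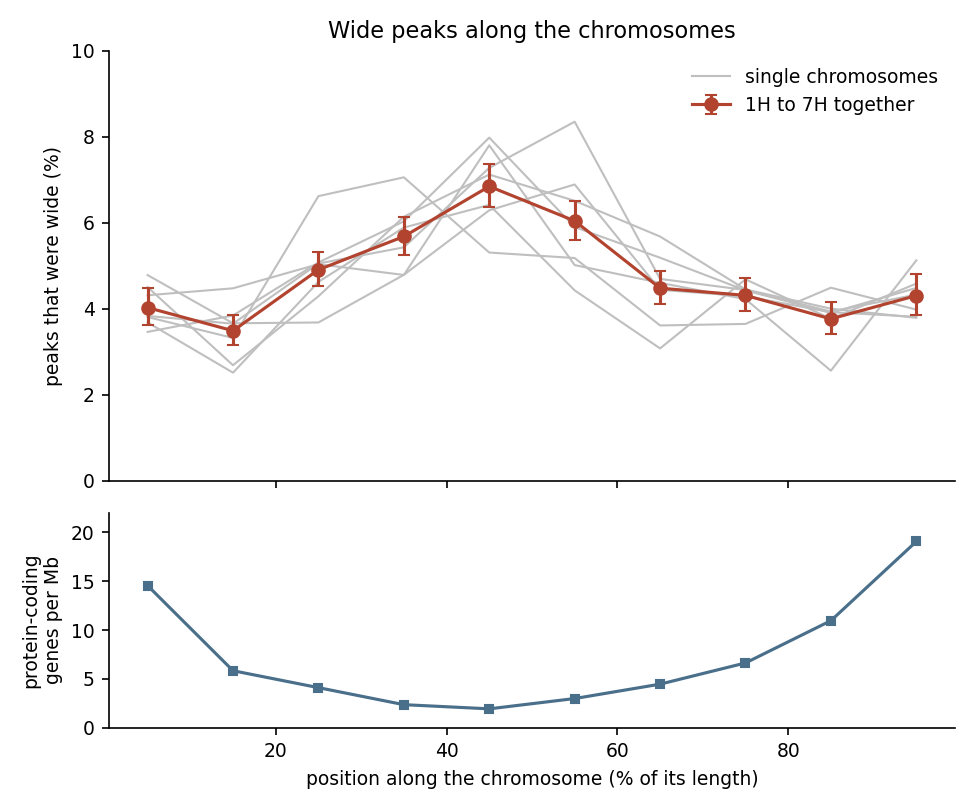
Share of all peaks that were wide (top, y axis, %) by position in 10 equal segments (x axis, % of the chromosome length), for 1H to 7H together with 95% Wilson intervals as bars and for each chromosome as a grey line, above the density of protein-coding genes (bottom, genes per Mb). The share was highest in the fifth segment at 6.85%, where gene density was lowest at 1.94 per Mb.

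Whole chromosomes differed little. The share of peaks that were wide was lowest on 1H, at 4.37% (4.02 to 4.74), and highest on 4H, at 5.09% (4.75 to 5.45), which corresponds to 1.03 and 1.25 wide peaks per Mb. The median width of the wide peaks was between 726 and 744 bp on all 7. In bins of 10 Mb the share varied more, from 0.448% on 1H from 60000001 to 70000000, with 1 wide peak of 223, to 13.5% (9.56 to 18.7) on 4H from 310000001 to 320000000, with 29 of 215. Of the 5 bins with the highest shares, 3 lay on 4H between 270000001 and 320000000. Across the 417 bins, which differ in their number of peaks, the share and the number of peaks were hardly related (Pearson r = -0.0406, given as a description).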

How the data were processed

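The deposited values of 6 VRS5-FLAG and 6 GFP-FLAG DAP-seq libraries were used as pooled by the authors. Per the submitters' processing notes and the study's methods, reads were trimmed with Trimmomatic 0.39, mapped to MorexV3 with BWA 0.7.17, and VRS5 peaks were called against GFP with MACS2 2.2.7.1. Peaks on greenscreen regions were removed with bedtools, and those with q below 1e-10 were kept. The authors deposited the pileup signal at each summit and its fold ratio to the local GFP-FLAG background, where 1 is added to both terms. They also deposited −log10 of the p-value, which was not used, and of the q-value of each peak. Of the greenscreen regions only the positions were used, although the authors gave each a score and a ratio. Totals per library, and so the depth behind each value, were not analysed here.

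Widths and summits were used as deposited. Distances were measured from the summit to RefSeq gene spans of MorexV3 on 1H to 7H, and gaps between peaks from edge to edge. Shares were compared between wide and narrower peaks by Newcombe intervals, over the whole list, per chromosome and, in weighted form, within classes of pileup, background or chromosome position. The counting was tested on simulated data. The width limit, comparisons and lists were chosen with earlier results of these data known. Genes were named by rule: those that hold the 10 widest peaks with a summit in a gene, those nearest to the 10 widest peaks, the 5 with the most wide summits within 15 kb, and genes the study names where an accession places them. Genes beside the strongest wide peaks and beside the 2H run were named after their values were seen. Alternatives varied the width limit, the q threshold, the windows, the gene set and the merging of peaks under 200 bp apart; the background classes, the 10 segments of each chromosome and the distance from greenscreen regions were added after the data were seen. Motifs and gene classes were not analysed here, as no sequence or gene description was used. Scripts ran under Python 3.11.15 with scipy 1.17.1, numpy 2.4.6, matplotlib 3.10.9 and pandas 2.3.3.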

Additional observations from a re-analysis of the deposited data

How the results depend on the processing

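Of 63 alternative values, 51 kept their call. For the differences, a kept call means the same direction and the same side of the threshold, an interval that excludes 0 or not. The number of wide peaks and the median distance of the summit from the middle have no interval. They are among the 63 and were judged by the size of the change. The difference in the share of summits near a gene, 0.730 points within 15 kb, depended most on the settings. As a weighted value within classes of background, which differed in direction, it fell to 0.0819. It turned to -0.355 points (interval including 0) with a limit of 800 bp and to -3.52 points within 50 kb, and its interval excluded 0 with a limit of 500 bp (1.91), within classes of pileup (1.05), within 5 kb (1.60), for any base of the peak (0.952) and, among settings added after the data were seen, within segments of the chromosome (1.71) and over 20 kb from greenscreen regions (1.28). The difference in gene bodies lost its call with a limit of 800 bp, at 0.122 points. In 9 other alternatives it stayed above 0, from 0.302 to 0.912. The differences in close neighbours (1.54 points within 10 kb and 3.004 with q below 1e-20, to 8.28), wide nearest neighbours (1.13 to 4.54), chromosome ends (-7.55 to -1.09, the former with 20% of the length taken at each end) and greenscreen borders (2.32 to 7.36) kept their calls in all alternatives run. The number of wide peaks was 8208 with a limit of 500 bp, 1656 with 800 bp and 2213 with q below 1e-20. The causes were not tested. No paired analysis was possible because both lists were made from pooled libraries and hold no value per replicate, and for the same reason no replicate could be left out. Alternatives on motifs and gene classes were not run.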
